A study of Homo sapiens with 16 samples.

Results

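The genes described here encode 10 enzymes that make amino acids or feed their synthesis, namely ASS1, ASL, ASNS, PYCR1, ALDH18A1, CTH, CBS, GPT2, GOT1 and PCK2. They are 10 of 32080 gene symbols on the array and were chosen with results of these same arrays known, so their differences between treatments and between cell lines are given as descriptions. Their probes were found by the gene name in the scanner files, which gave 13 probes, with 2 each for ASS1, PYCR1 and PCK2 and 1 for each of the others. Both lines studied, RPMI-8226 and MM.1S, are long established and derive from human multiple myeloma, a tumor of plasma cells. Cells of each line were given the solvent DMSO, GSK126 (1 µM), UNC0638 (1 µM) or both agents (1 µM each) for 6 days, with 2 biological replicates per group, which makes 8 groups and 16 arrays. EZH2, the enzyme that places H3K27 trimethylation, is the target of GSK126, and the H3K9 methyltransferase G9a is that of UNC0638. Each group is a culture of 1 established line, and the DMSO cells of the same line are the only controls, shared by its 3 treatments.

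ASS1 joins citrulline and aspartate, ASL then releases arginine and fumarate, and cells that lack ASS1 depend on arginine from outside. ASNS transfers the amide of glutamine to aspartate and yields asparagine. ALDH18A1 and PYCR1 carry glutamate to proline in the mitochondrion, CBS and CTH carry homocysteine by way of cystathionine to cysteine, GPT2 and GOT1 exchange amino groups between glutamate and pyruvate or oxaloacetate, and PCK2 forms phosphoenolpyruvate from oxaloacetate in the mitochondrion. ATF4, a transcription factor made when amino acids run short or the endoplasmic reticulum is stressed, is known to activate ASNS and several of the others through C/EBP-ATF response elements. MYC, which binds E-boxes, is also known to act on this metabolism in tumor cells.

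Because ASS1 and ASNS were called lower with the combination in both cell lines, their promoter windows that held a motif are shown, together with that of GOT1, the other window that held the C/EBP-ATF core. RefSeq windows (GRCh38.p14, 250 bases before to 50 bases after the start) matched 8 of the 10 genes with 12 windows, and none was matched for PYCR1 and GPT2. The motifs searched on both strands were TGATGNAA, in which N is any base, and CACGTG, and their matches did not overlap. Capitals mark a match, and each sequence is written 5′ to 3′ on the strand of the gene.
ASNS, chr7:97872359-97872658, minus strand: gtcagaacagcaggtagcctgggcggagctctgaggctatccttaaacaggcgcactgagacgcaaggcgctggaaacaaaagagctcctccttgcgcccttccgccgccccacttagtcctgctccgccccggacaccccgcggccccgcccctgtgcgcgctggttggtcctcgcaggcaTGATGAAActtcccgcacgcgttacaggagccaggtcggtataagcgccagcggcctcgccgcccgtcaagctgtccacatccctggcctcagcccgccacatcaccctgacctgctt
GOT1, chr10:99430575-99430874, minus strand: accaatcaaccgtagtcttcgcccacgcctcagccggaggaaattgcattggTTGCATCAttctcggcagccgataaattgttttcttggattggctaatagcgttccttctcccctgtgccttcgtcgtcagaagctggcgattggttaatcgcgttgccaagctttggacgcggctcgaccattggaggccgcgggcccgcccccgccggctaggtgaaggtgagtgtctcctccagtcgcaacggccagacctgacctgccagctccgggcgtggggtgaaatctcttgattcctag
ASS1, chr9:130444711-130445010, plus strand: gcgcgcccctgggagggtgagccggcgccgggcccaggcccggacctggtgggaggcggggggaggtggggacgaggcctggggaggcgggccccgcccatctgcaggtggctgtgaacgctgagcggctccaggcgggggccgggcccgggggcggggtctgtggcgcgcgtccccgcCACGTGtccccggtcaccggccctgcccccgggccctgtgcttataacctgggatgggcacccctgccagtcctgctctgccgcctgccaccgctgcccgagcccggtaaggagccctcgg
The ASNS match starts 68 bases before the transcription start and reads on the strand of the gene, and that of GOT1 starts 198 bases before it and reads on the opposite strand. The E-box of ASS1 starts 71 bases before the start, and an ALDH18A1 window held an E-box 136 bases before it. Among the 12 windows, 2 held TGATGNAA and 2 held CACGTG, beside 3.62% and 7.26% of all 35116 windows. The windows of ASL, CTH, CBS and PCK2, and further windows of ASS1 and ASNS, held neither string of letters. The matches are descriptions of the sequence, and binding at these windows was not measured here.

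Every array value is the brightness of a spot, put on the log2 scale and set against the 75th percentile of its array, and this is the level given below, so a level of 0 is a spot as bright as that percentile. Levels of different probes cannot be compared with each other. The share of spots well above background was 46.5% to 49.7% on the RPMI-8226 arrays and 49.9% to 52.8% on the MM.1S arrays, none was saturated, and the lowest r of replicate arrays was 0.985 and 0.993, respectively. Each line had a slide of its own, so slide and line cannot be told apart. Within a slide the columns held the treatments and the rows the replicate numbers, so position cannot be told apart from either. All 7 plasma cell markers were well above background on all 8 arrays of both lines, and of 3 fibroblast markers none was so on all 8 arrays. The summed plasma cell level was 7.23 to 7.28 with DMSO and 6.67 to 6.89 with the combination for RPMI-8226, and 8.65 to 8.68 and 8.09 to 8.10 for MM.1S, without overlap. In RPMI-8226 cells the T cell markers CD3D and CD3G and the monocyte markers CD14 and CSF1R were measured on all 8 arrays. Their lists also moved with treatment, as the summed level of the 3 T cell markers lay between -1.93 and -1.51 with DMSO and between 3.53 and 3.75 with the combination, and that of the 2 monocyte markers between -0.93 and -0.12 and between 1.85 and 2.27. With MM.1S the T cell sum lay between -3.29 and -2.67 with DMSO and between -1.69 and -1.66 with the combination. Neither CD3E nor CD3G was well above background with DMSO in that line. The monocyte sum of MM.1S overlapped, between -2.87 and -2.80 with DMSO and between -2.94 and -2.76 with the combination. The RPMI-8226 sum of the 3 fibroblast markers lay between -4.72 and -3.75 with DMSO and between -2.44 and -2.18 with the combination. Over the 8 RPMI-8226 arrays CD3E was well above background on 4, COL1A1 and COL1A2 on 2 each and COL3A1 on 0. The part of these cell type markers in the results was not tested. In bulk samples, fewer cells of a type and less RNA per cell cannot be told apart.

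ASS1, the entry to arginine synthesis, was lower with the combination than with DMSO in both lines. At its main probe (chr9:133376601-133376660, GRCh37) the levels of the 2 RPMI-8226 arrays were 5.56 and 5.45 with DMSO, 4.33 and 4.60 with GSK126, 4.88 and 4.84 with UNC0638, and 3.29 and 3.49 with the combination. The 4 groups did not overlap, and their order was DMSO, UNC0638, GSK126 and the combination. Against DMSO the level differed by -1.04 ± 0.16 (log2, SE, n = 2 per group) with GSK126, -0.65 ± 0.16 with UNC0638 and -2.12 ± 0.16, or 4.34-fold, with the combination. limma called the combination lower than DMSO and lower than each single agent, by -1.08 ± 0.16 against GSK126 and -1.47 ± 0.16 against UNC0638. The GSK126 difference was not called at this probe and was called at the other one (chr9:133342120-133342179), where it was -1.09 ± 0.15, and it was called at the main probe with the replicate number as a block. At the other probe the combination was lower by 2.33 ± 0.15 on the log2 scale, or 5.01-fold, with levels of 3.40 and 3.28 under DMSO and 0.88 and 1.15 under the combination.

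In MM.1S cells ASS1 started far lower. The levels at the main probe were -1.56 and -0.56 with DMSO, -4.21 and -2.79 with GSK126, -3.42 and -4.13 with UNC0638, and -3.81 and -4.93 with the combination. All 6 treated arrays lay below both DMSO arrays, while the 3 treated groups overlapped one another. The differences from DMSO were -2.44 ± 0.63 with GSK126, which was not called, -2.72 ± 0.63 with UNC0638 and -3.31 ± 0.63, or 9.93-fold, with the combination, both of which were called. These spots were dim, and 1 of the 2 combination arrays was not well above background. With normexp background correction, which raises dim spots, the differences were -1.44 (2.72-fold, and called) with GSK126, -1.60 (3.03-fold) with UNC0638 and -1.73 (3.33-fold) with the combination. The GSK126 difference was -1.73 without GSK126 replicate 1 and -3.15 without GSK126 replicate 2. The other probe was well above background only with DMSO (-3.58 and -2.66), and was at least 3.32-fold lower with GSK126, at least 3.19-fold lower with UNC0638 and at least 3.32-fold lower with the combination, and limma called all 3 differences. The UNC0638 call at the main probe was lost without any 1 of the 2 DMSO or the 2 UNC0638 arrays.

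ASL, which completes arginine synthesis, did not follow ASS1 in RPMI-8226 cells. Its levels there (chr7:65554654-65557023, an interval longer than the probe) were 1.70 and 1.61 with DMSO, 2.01 and 1.81 with GSK126, 1.77 and 1.67 with UNC0638, and 1.74 and 1.75 with the combination, a difference of 0.09 ± 0.14 for the combination. The GSK126 and combination arrays all lay above both DMSO arrays, and neither difference was called, that of GSK126 being 0.26 ± 0.14. In MM.1S cells the levels were 2.16 and 2.03, 1.83 and 1.92, 1.89 and 1.89, and 1.74 and 1.45 in the same order of groups. There the combination was called lower by 0.50 ± 0.12, and the call was lost when the percentile was taken over probes detected on all arrays (-0.29), after quantile normalization (-0.35) and without DMSO replicate 1 (-0.44).

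ASNS, the asparagine synthetase, stood at nearly the same level in both lines without treatment and was lower with the combination in both. In RPMI-8226 cells (chr7:97481461-97481520, GRCh37) the levels were 5.77 and 5.64 with DMSO, 4.89 and 5.12 with GSK126, 5.52 and 5.43 with UNC0638, and 4.38 and 4.72 with the combination. The groups did not overlap, and the order was again DMSO, UNC0638, GSK126 and the combination. The combination differed from DMSO by -1.16 ± 0.17, or 2.23-fold, and was called, as was its difference from UNC0638 of -0.93 ± 0.17, while the differences of GSK126 (-0.70 ± 0.17) and UNC0638 (-0.23 ± 0.17) from DMSO were not. The call for the combination was lost without DMSO replicate 1 (-1.09) and without combination replicate 1 (-0.98). In MM.1S cells the levels were 5.52 and 5.80 with DMSO, 4.75 and 4.90 with GSK126, 4.69 and 4.54 with UNC0638, and 4.38 and 4.30 with the combination. Here all 3 treatments were called lower, by 0.84 ± 0.12, 1.04 ± 0.12 and 1.32 ± 0.12 on the log2 scale. The order of the single agents was the other way round. The GSK126 call was lost under 5 of 19 alternative settings, among them DMSO replicate 2 or either GSK126 array left out.

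**Figure D1:**
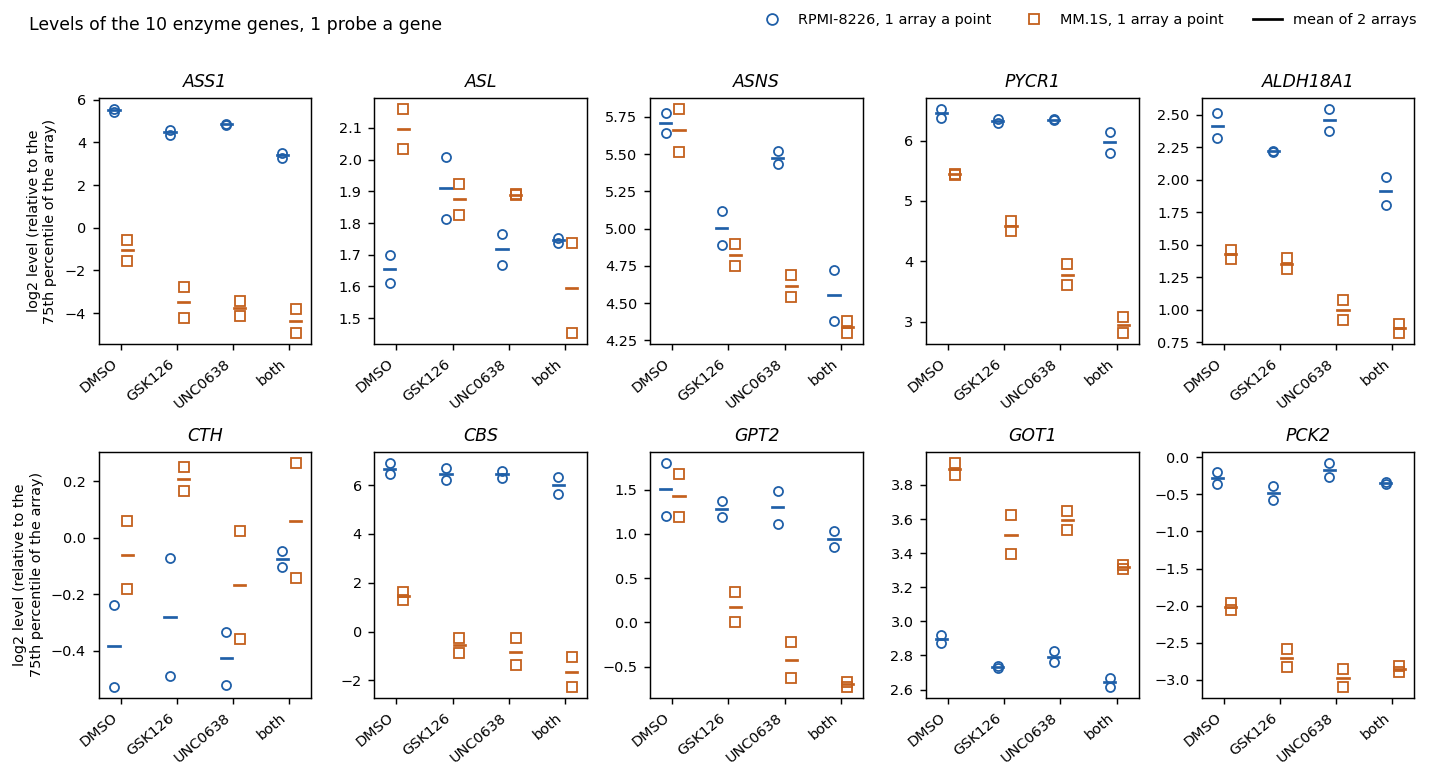
Log2 level relative to the 75th percentile of the array (vertical axis, scaled for each gene) for 1 probe of each of the 10 genes, by treatment, with circles for RPMI-8226 and squares for MM.1S, 1 array a point and a line at the mean of the 2 arrays of a group. ASS1 in RPMI-8226 cells steps from 5.56 and 5.45 with DMSO to 3.29 and 3.49 with the combination, and PYCR1 in MM.1S cells steps down from group to group with no overlap.

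PYCR1, the last enzyme of proline synthesis, set the lines apart. In MM.1S cells (chr17:79890331-79890390, GRCh37) the levels were 5.43 and 5.45 with DMSO, 4.50 and 4.68 with GSK126, 3.95 and 3.60 with UNC0638, and 3.07 and 2.81 with the combination. No 2 groups overlapped. The differences from DMSO of -0.85 ± 0.15, -1.67 ± 0.15 and -2.50 ± 0.15, the last of them 5.65-fold, were all called. So were those of the combination from GSK126 (-1.64 ± 0.15) and from UNC0638 (-0.83 ± 0.15). The call of GSK126 against DMSO was lost under 7 of 19 alternative settings, among them each DMSO or GSK126 array left out. The other PYCR1 probe (chr17:79893242-79893301) gave -0.87 ± 0.19, not called, -2.09 ± 0.19 and -2.73 ± 0.19. It was dim in these cells, at -4.72 and -5.09 with the combination, and combination replicate 2 was not well above background. The RPMI-8226 levels were 6.52 and 6.38, 6.29 and 6.36, 6.35 and 6.35, and 5.79 and 6.15, so that the combination arrays lay below DMSO by 0.48 ± 0.16 with no call.

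ALDH18A1, which makes the pyrroline precursor from glutamate, had smaller differences. In MM.1S cells (chr10:97366137-97366196) its levels were 1.46 and 1.39 with DMSO, 1.31 and 1.40 with GSK126, 1.07 and 0.93 with UNC0638, and 0.82 and 0.90 with the combination. The UNC0638 difference of -0.43 ± 0.09 and the combination difference of -0.57 ± 0.09 were called. The former call was lost without any 1 of the DMSO arrays or without UNC0638 replicate 2. The levels of RPMI-8226 arrays were 2.51 and 2.32 with DMSO and 1.81 and 2.03 with the combination, between 2.21 and 2.54 with the single agents, and the combination difference of -0.50 ± 0.15 was not called.

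CBS, which starts the path from homocysteine to cysteine, was another gene with a large difference in MM.1S cells. Its levels there (chr21:44473319-44473378) were 1.31 and 1.64 with DMSO, -0.89 and -0.25 with GSK126, -0.27 and -1.38 with UNC0638, and -1.06 and -2.25 with the combination. All treated arrays lay below both DMSO arrays. The differences were -2.04 ± 0.52 with GSK126, which was not called, -2.30 ± 0.52 with UNC0638 and -3.13 ± 0.52, or 8.75-fold, with the combination, both called, and the UNC0638 call was lost without DMSO replicate 1, DMSO replicate 2 or UNC0638 replicate 2. The combination difference was -3.73, or 13.2-fold, without combination replicate 1 and -2.53, or 5.79-fold, without combination replicate 2. For RPMI-8226 cells they were 6.44 and 6.92, 6.21 and 6.70, 6.31 and 6.59, and 5.66 and 6.33. The combination difference of -0.69 ± 0.30 was not called, and was called with the replicate number as a block. RefSeq lists another chromosome 21 locus with CBS among its synonyms, and pseudogenes of ASS1 and ASNS, and hybridisation of their transcripts to these probes was not tested.

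CTH, which follows CBS and releases cysteine, was the 1 gene of the 10 with a combination difference above 0 in both lines. Its levels (chr1:70905041-70905100) in RPMI-8226 cells were -0.53 and -0.24 with DMSO, -0.49 and -0.07 with GSK126, -0.52 and -0.33 with UNC0638, and -0.05 and -0.10 with the combination. In MM.1S cells they were -0.18 and 0.06, 0.17 and 0.25, -0.36 and 0.02, and -0.14 and 0.27. Its combination differences of 0.31 ± 0.19 and 0.12 ± 0.19 were not called.

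GPT2, the mitochondrial alanine transaminase, had levels in MM.1S cells (chr16:46964768-46964827) of 1.19 and 1.68 with DMSO, 0.01 and 0.34 with GSK126, -0.22 and -0.63 with UNC0638, and -0.67 and -0.72 with the combination. The 4 groups did not overlap, and the differences of -1.26 ± 0.22, -1.86 ± 0.22 and -2.13 ± 0.22, the last of them 4.39-fold, were called. The GSK126 call was lost under 7 of 19 alternative settings, among them DMSO replicate 2 or any GSK126 or combination array left out. Over the 19 settings its difference ran from -1.51 to -1.01. RPMI-8226 arrays gave levels of 1.80 and 1.21, 1.37 and 1.19, 1.49 and 1.11, and 0.85 and 1.03, and no difference from DMSO was called, the combination differing by -0.56 ± 0.24. GOT1, the cytosolic aspartate transaminase (chr10:101157225-101157284), moved less. Its levels in MM.1S cells were 3.86 and 3.93 with DMSO, between 3.39 and 3.65 with the single agents, and 3.31 and 3.33 with the combination, a difference of -0.57 ± 0.10 that was called and that became -0.26 with no call after quantile normalization. In RPMI-8226 cells it was 2.92 and 2.87 with DMSO and 2.67 and 2.62 with the combination, and -0.25 ± 0.13 was not called.

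PCK2 was lower with every treatment in MM.1S cells. Its levels there (chr14:24569401-24571999, again longer than the probe) were -2.06 and -1.97 with DMSO, -2.58 and -2.83 with GSK126, -2.86 and -3.09 with UNC0638, and -2.82 and -2.90 with the combination. The differences of -0.70 ± 0.13, -0.96 ± 0.13 and -0.85 ± 0.13 were all called, and the combination arrays overlapped those of both single agents. The GSK126 call was lost under 8 of 19 alternative settings, among them each DMSO, GSK126 or combination array left out. Over the 19 settings its difference ran from -0.82 to -0.38. In RPMI-8226 cells the levels ran from -0.58 to -0.07 over the 8 arrays, and the combination differed from DMSO by -0.08 ± 0.15 with overlapping arrays. The other PCK2 probe (chr14:24569694-24569753) was dim in RPMI-8226 cells, between -4.48 and -3.45, and was not well above background with GSK126. All treated arrays lay below both DMSO arrays there, with no call. The difference was at least 1.43-fold with GSK126, -0.29 ± 0.17 with UNC0638 and -0.41 ± 0.17 with the combination. In MM.1S cells this probe was left out, since it was not well above background on both arrays of any group.

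**Figure D2:**
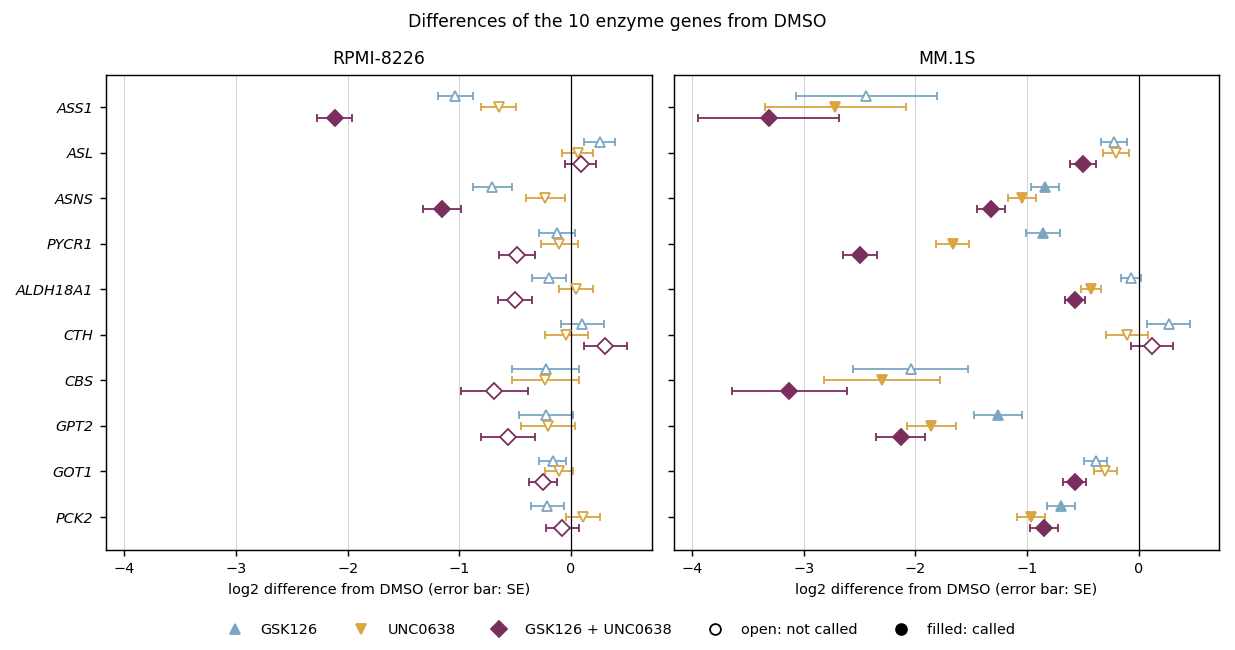
Log2 difference of each treatment from DMSO (horizontal axis) for 1 probe of each of the 10 genes, with RPMI-8226 on the left and MM.1S on the right, error bars of 1 SE and filled symbols where limma called the difference. In MM.1S cells 9 of the 10 combination symbols are filled and below 0, with CTH at 0.12, and in RPMI-8226 cells those of ASS1 (-2.12) and ASNS (-1.16) are.

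Over the genes, with 1 probe each, limma called 2 of 10 lower than DMSO with the combination for RPMI-8226 and 9 of 10 for MM.1S, and none higher. Of the probes, 3 of 13 and 11 of 12 were called lower, beside 5.17% and 31.7% of all probes tested (23193 and 25096), and since these genes were chosen on these arrays nothing is read from the difference. With GSK126, 1 of 13 probes and 0 of 10 genes were called lower in RPMI-8226 cells, beside 0.0517% of all probes, with 2 genes and 2472 of all 23193 probes at an unadjusted p under 0.05, and 5 of 12 probes and 4 of 10 genes in MM.1S cells, beside 2.39%. With UNC0638 it was 0 of 13 probes and 0 of 10 genes in RPMI-8226 cells, beside 0.0776%, with 1 gene and 2226 of all probes at an unadjusted p under 0.05, and 9 of 12 probes and 7 of 10 genes in MM.1S cells, beside 16.5%. With the replicate number as a block, which pairs the RPMI-8226 arrays, 1 gene was called lower with GSK126, 0 with UNC0638 and 3 with the combination in that line, beside 0.328%, 0.479% and 9.97% of all probes in that fit. The median difference over the 10 genes with the combination was -0.49 for RPMI-8226 and -1.08 for MM.1S, beside medians of -0.13 and -0.12 over all probes tested.

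Some counts depended on single arrays. In MM.1S cells the GSK126 count of 4 genes was 0 without DMSO replicate 2, GSK126 replicate 1 or GSK126 replicate 2, where all probes called lower numbered 24, 21 and 184 in place of 600. It was 2 without DMSO replicate 1 or either combination array, with 83 and 293 probes. The UNC0638 count of 7 genes was 4 without DMSO replicate 1, DMSO replicate 2 or UNC0638 replicate 2, where 1527, 1710 and 1555 probes were called lower in place of 4142. The RPMI-8226 combination count of 2 genes was 1 without DMSO replicate 1 or combination replicate 1, where 347 and 206 probes were called lower in place of 1199.

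Whether the combination went beyond a single agent was compared directly. In RPMI-8226 cells it was lower than GSK126 at 2 of 13 probes, both of ASS1, beside 0.543% of all probes, and lower than UNC0638 at 3 of 13, beside 0.698%, those of ASS1 and ASNS. In MM.1S cells it was lower than GSK126 at 5 of 12 probes, beside 22% of all probes, and lower than UNC0638 at 1 of 12, PYCR1, beside 7.41%. ASNS (-0.48 ± 0.12) and GPT2 (-0.87 ± 0.22) were among the genes called lower with the combination than with GSK126 in MM.1S cells, whereas PCK2 differed by -0.15 ± 0.13 from GSK126 and by 0.12 ± 0.13 from UNC0638.

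The combination was also set against the sum of the log2 differences of the single agents. For ASS1 in RPMI-8226 cells it lay below that sum by 0.43 ± 0.22 on the log2 scale. In MM.1S cells ASNS lay above the sum by 0.56 ± 0.18, GPT2 by 0.98 ± 0.31, PCK2 by 0.81 ± 0.18 and CBS by 1.21 ± 0.73, while PYCR1 was within 0.02 ± 0.21 of it. ASS1 lay above it by 1.85 ± 0.89 at the main probe, but the sum would put its level at -6.22, below the -4.93 of an array on which it was already not well above background, so nothing is read from this value. limma called no departure for any of the 10 genes in either line. At 1 probe a gene, an unadjusted p under 0.05 was found for 0 genes of RPMI-8226, beside 956 of all probes, and 3 of MM.1S. The other PCK2 probe, not counted there, lay above the sum by 0.64 ± 0.25 in RPMI-8226 cells (limma unadjusted p = 0.036). Its GSK126 arrays were not well above background. Of all probes, 0.00431% were called below the sum and 0.16% above it in RPMI-8226 cells, and 0% and 0% in MM.1S cells, where 2456 probes had an unadjusted p under 0.05.

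The untreated lines differed most at ASS1 and CBS. With DMSO, ASS1 was higher in RPMI-8226 than in MM.1S cells by 6.57 ± 0.50 on the log2 scale, or 94.7-fold, at the main probe and by 6.46 ± 0.50 at the other, and CBS by 5.21 ± 0.46, or 36.9-fold. PCK2 (1.74 ± 0.13), PYCR1 (1.01 ± 0.16) and ALDH18A1 (0.99 ± 0.12) were also called higher in RPMI-8226 cells. GOT1 (-0.996 ± 0.103) and ASL (-0.44 ± 0.12) were called lower there. ASNS differed by 0.05 ± 0.15, GPT2 by 0.07 ± 0.25 and CTH by -0.32 ± 0.20, with no call. Of the 13 probes 7 were called higher and 2 lower in RPMI-8226 cells, beside 28.4% and 29.3% of all 26925 probes tested. After the combination the lowest ASS1 level in RPMI-8226 cells, 3.29, still lay above the highest in untreated MM.1S cells, -0.56.

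The responses of the lines were compared as differences of differences over all 16 arrays. With the combination 6 of 13 probes were called with a response difference (RPMI-8226 minus MM.1S) above 0, beside 7.28% of all probes. They were those of ASL, PYCR1, CBS, GPT2 and PCK2 (the main probe). All of them lay below DMSO in MM.1S cells, and lay less far below it, or above it, in RPMI-8226 cells. CBS gave 2.44 ± 0.65 and the 2 PYCR1 probes 2.02 ± 0.22 and 2.34 ± 0.27, the latter from the probe that was dim in MM.1S cells. With UNC0638 4 of 13 probes were called, beside 1.11%, which were those of PYCR1 (1.56 ± 0.22 and 2.02 ± 0.27), GPT2 (1.65 ± 0.35) and PCK2 (1.07 ± 0.19). With GSK126 0 of 13 were called, beside 0.357%, with 5 of 10 genes and 2822 of all 26925 probes at an unadjusted p under 0.05. ASS1 responses differed by 1.20 ± 0.70 and ASNS responses by 0.17 ± 0.21 with the combination, and neither was called. The direction for ASS1 rests on the dim MM.1S spots and turned with normexp, where the combination differences from DMSO were -2.07 for RPMI-8226 and -1.73 for MM.1S.

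**Figure D3:**
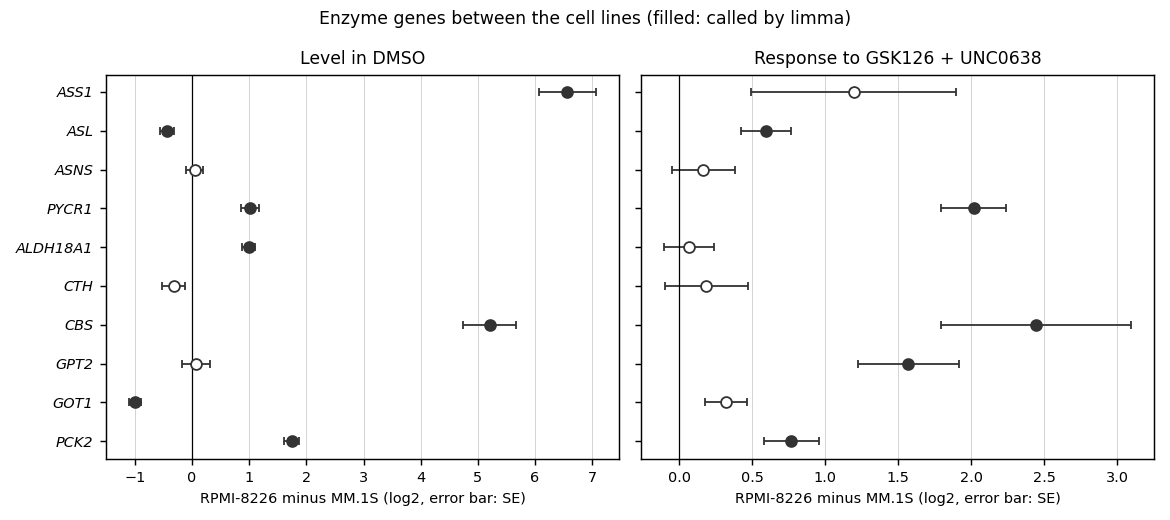
RPMI-8226 minus MM.1S on the log2 scale (horizontal axis) for the DMSO level (left) and for the response to the combination (right) of 1 probe of each of the 10 genes, with error bars of 1 SE and filled points where limma called the difference. The DMSO points of ASS1 (6.57) and CBS (5.21) stand far to the right, while ASNS lies at 0.05 on the left and 0.17 on the right.

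Other genes of the same metabolism, from lists written by hand with earlier results known, are given by their counts, beside 7.2% of all probes called higher and 5.17% lower with the combination for RPMI-8226 and 22.2% higher and 31.7% lower in MM.1S cells. All 7 listed enzymes of serine, glycine and folate metabolism were lower with the combination in MM.1S cells (list median -1.80), against 2 of 7 in RPMI-8226 cells (median -0.68). PHGDH, the first enzyme of serine synthesis, fell by 3.17 ± 0.30 on the log2 scale in MM.1S cells (limma adjusted p = 0.00058), and PSAT1, which follows it, fell by 3.10 ± 0.24 (limma adjusted p = 0.00035). PSAT1 also fell in RPMI-8226 cells, by 1.20 ± 0.19 (limma adjusted p = 0.013), as did SHMT2, which makes glycine in the mitochondrion, by 0.70 ± 0.16 (limma adjusted p = 0.037). The folate enzymes MTHFD1L (-1.99 ± 0.12) and MTHFD2 (-1.80 ± 0.10) fell in MM.1S cells (limma adjusted p = 0.00019 and 0.00015).

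Of ATF4 and its response genes 12 of 20 fell and 1 rose in MM.1S cells (median -0.88), and 3 of 21 fell and 0 rose in RPMI-8226 cells (median -0.21). CHAC1, which degrades glutathione, fell in both lines. The fall was 3.91 ± 0.37 on the log2 scale for MM.1S (limma adjusted p = 0.00058) and 2.10 ± 0.29 for RPMI-8226 (limma adjusted p = 0.0076). In MM.1S cells the transporter of large neutral amino acids SLC7A5 (-2.86 ± 0.17), the cystine transporter SLC7A11 (-2.45 ± 0.24) and the translation repressor EIF4EBP1 (-1.63 ± 0.11) fell (limma adjusted p = 0.00018, 0.00064 and 0.00024). In RPMI-8226 cells the secreted STC2 (-1.59 ± 0.21) and the tRNA exporter XPOT (-0.60 ± 0.15) fell (limma adjusted p = 0.0065 and 0.049). ATF4 transcript itself was called lower in MM.1S cells, by 0.95 on the log2 scale, and was at -0.21 with no call in RPMI-8226 cells. The 1 gene that rose in MM.1S cells was VLDLR, a lipoprotein receptor, by 1.54 on that scale. ATF4 and VLDLR were named after their values were seen.

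The neighbours in transamination and the citrate cycle also had more calls in MM.1S cells, 7 of 9 lower, against 1 of 9 in RPMI-8226 cells, with medians of -0.76 and -0.37. Pyruvate carboxylase PC (-0.98 ± 0.11), malate dehydrogenase MDH2 (-0.83 ± 0.07), the mitochondrial aspartate transaminase GOT2 (-0.81 ± 0.09) and the branched-chain transaminase BCAT2 (-0.79 ± 0.08) fell in MM.1S cells, with limma adjusted p between 0.00045 and 0.0010. The malic enzyme ME2 fell in RPMI-8226 cells, by 0.79 ± 0.17 (limma adjusted p = 0.031).

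Of 9 genes around the urea cycle 3 rose with the combination in RPMI-8226 cells and none was called lower, with 3 of the 9 and 7224 of all 23193 probes at an unadjusted p under 0.05 in either direction. GATM, which uses arginine for creatine synthesis, was at least 5.82-fold higher and CPS1, the carbamoyl phosphate synthetase of the cycle, at least 3.96-fold higher (limma adjusted p = 0.0094 and 0.012), since neither was well above background with DMSO. ARG2, the mitochondrial arginase, rose by 1.67 ± 0.19 (RPMI-8226, limma adjusted p = 0.0036) or fell by 0.84 ± 0.12 (MM.1S, limma adjusted p = 0.0021). In MM.1S cells CPS1 rose by 1.47 ± 0.11 (limma adjusted p = 0.00031), and the ornithine carrier SLC25A15 (-0.78 ± 0.16) and ornithine decarboxylase ODC1 (-0.53 ± 0.12) fell (limma adjusted p = 0.0080 and 0.010). In all, 4 of the 9 were called lower and 2 higher there.

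Of the enzymes of glutamate, glutamine and proline, 1 of 8 was lower and 2 higher in RPMI-8226 cells, against 4 of 9 lower and 1 higher in MM.1S cells. Glutamine synthetase GLUL rose by 1.34 ± 0.23 in RPMI-8226 cells, while GLS2 fell by 0.78 ± 0.18 (limma adjusted p = 0.017 and 0.040). In MM.1S cells PYCRL (now PYCR3), a cytosolic relative of PYCR1, fell by 1.07 ± 0.15 (limma adjusted p = 0.0018), GLUD2 fell by 0.54 ± 0.10 (limma adjusted p = 0.0058), GLUD1 fell by 0.32 ± 0.07 (limma adjusted p = 0.013), and PRODH, which breaks proline down, rose by 0.94 ± 0.23 (limma adjusted p = 0.016). The PRODH spots were dim, at -4.89 and -4.38 with DMSO and -3.85 and -3.54 with the combination, and DMSO replicate 1 was not well above background. In the methionine cycle AHCY, which forms homocysteine, fell by 0.66 ± 0.17 (RPMI-8226, limma adjusted p = 0.049) or fell by 1.41 ± 0.12 (MM.1S, limma adjusted p = 0.00045). The other calls of that list of 11 were TST, which rose by 0.76 ± 0.15 for RPMI-8226 (limma adjusted p = 0.024), and MAT2A, which fell by 0.48 ± 0.14 for MM.1S (limma adjusted p = 0.030).

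**Figure D4:**
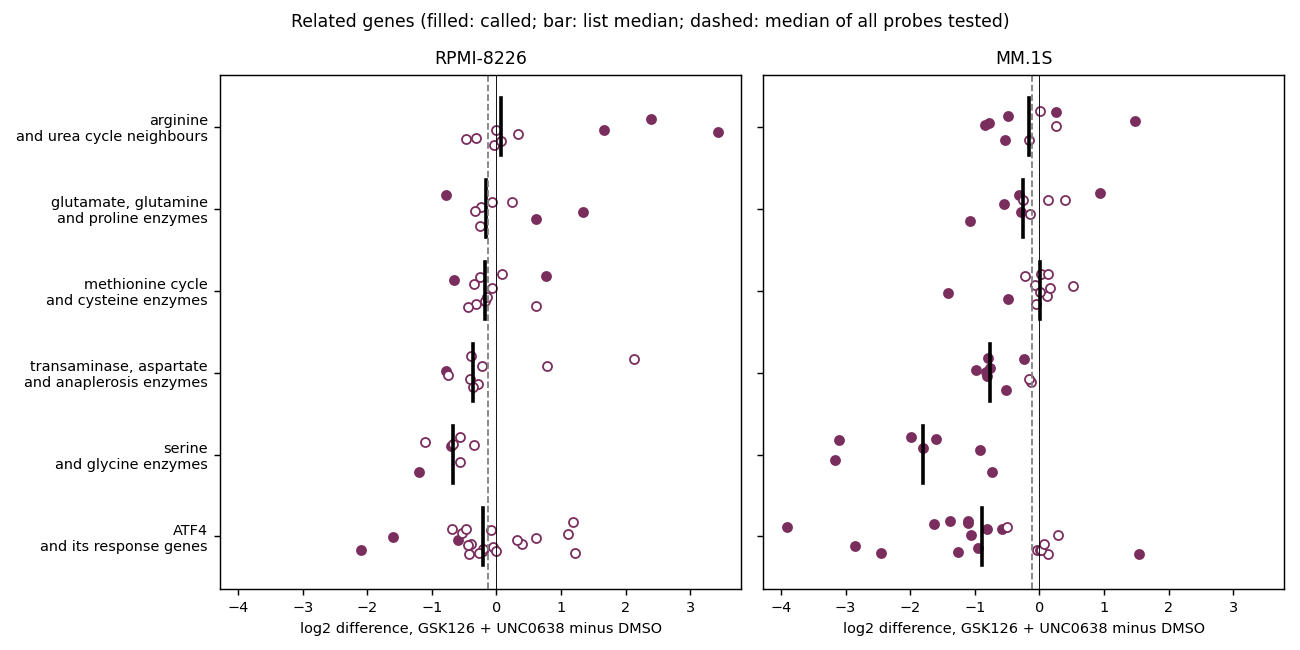
Log2 difference between the combination and DMSO (horizontal axis) for each tested gene of 6 lists, with RPMI-8226 on the left and MM.1S on the right, filled points where limma called the gene, a bar at the median of the list and a dashed line at the median of all probes tested (-0.13 and -0.12). The listed serine and glycine enzymes have medians of -0.68 and -1.80.

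The genes whose levels ran most like those of ASS1 and ASNS were sought among 14820 genes, by Pearson r over the 16 arrays after the mean of each line was removed. These arrays share their slides and treatments, so the values are descriptions. For ASS1 they were CHAC1 (r = 0.96), the tRNA synthetases GARS (0.95) and AARS (0.95), the unmapped transcript XLOC_l2_014504 (0.95) and the translation initiation factor subunit EIF3K (0.95). For ASNS they were XLOC_l2_014191 (0.99), XLOC_l2_014504 (0.99), FLJ43315 (0.97), the exosome subunit EXOSC1 (0.96) and LOC442028 (0.96). RefSeq lists FLJ43315 as a transcribed pseudogene, and whether the probes of FLJ43315 and of the XLOC transcripts detect ASNS transcripts was not tested, so an r of ASNS with its own signal and an r between genes cannot be told apart for them.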

How the data were processed

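Total RNA was amplified, labelled with Cy3 and hybridised to SurePrint G3 Human GE arrays. The authors deposited the scanner output (Agilent Feature Extraction 10.7, per the labels' processing notes), with a linear, background-subtracted intensity for every spot and no normalization between arrays. Control spots (4259 of 62976) and outlier spots were left out, log2 intensity minus the 75th percentile of the array was taken, and spots of a probe were averaged. Kept for a line were probes for which 1 or more groups were well above background in both replicates (23199 and 25102), and 6 in each line with a missing value were not tested. limma (version 3.58.1, R 4.3.3; lmFit and eBayes) was fitted over the 8 arrays of a line, or over 16 for differences between lines, and a probe was called at a Benjamini-Hochberg adjusted p under 0.05. Fold changes are differences of 2-array means, so the number of arrays limits the precision. For a probe that missed that level in both replicates of a group, the fold is a lower bound: the brighter group's mean against the probe's signal or, if higher, the lowest signal well above background.

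The genes and lists were chosen with earlier results of these data known. Text names all 10 genes at every probe, up to 4 called genes per list with the largest combination difference in each line, and the 5 most alike ASS1 and ASNS, apart from 1 called gene that is not reported here. A gene is represented by its probe with the highest mean. The same-numbered RPMI-8226 arrays deviated together in 6 of 6 pairs of groups (r between 0.254 and 0.415), so the labels' numbers were taken to pair them. The main fit, with its SEs and calls, did not use this pairing, which entered only through the replicate block. The alternatives were normexp (offset 50), quantile normalization, a percentile over probes detected on all arrays, a filter for all 8 arrays or none, the authors' series table, a replicate block, other sets of arrays in the fit, an intensity trend, the mean over probes, and each array left out. The study's methods name Gene Spring GX and an enrichment analysis of an interferon gene list and cite an earlier protocol, and the normalization and the test per gene are not given in the sources used here. The fits were tested on simulated data. The exon in which each probe lies was not analysed here.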

Additional observations from a re-analysis of the deposited data

Results flagged for a closer look

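Responses that differed between the lines in limma's fit over all 16 arrays are listed here as RPMI-8226 minus MM.1S on the log2 scale. A value above 0 here is a smaller decrease, or none, in RPMI-8226 cells. With UNC0638 they were PYCR1 (1.56), GPT2 (1.65) and PCK2 (1.07). With the combination they were ASL (0.59), PYCR1 (2.02), CBS (2.44), GPT2 (1.57) and PCK2 (0.77).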

How the results depend on the processing

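Over 1137 values of the 10 genes under the alternatives, 1067 stayed on their side of the threshold, 47 lost a call, 23 gained one and 0 changed sign while called. Some small differences that were not called crossed 0, such as that of ALDH18A1 with GSK126 in MM.1S cells (-0.07, highest 0.01). The count of genes called lower with GSK126 in RPMI-8226 cells (0) was 1 with normexp, the filter for all 8 arrays, the replicate block, the intensity trend, 1 fit over all arrays and the mean over probes, where 13 to 112 of all features tested were lower in place of 12. The RPMI-8226 combination count (2) was 4 with the intensity trend (2104 probes lower in place of 1199). In MM.1S cells the GSK126 count (4) was 7 with normexp, 7 with the intensity trend, 0 with no filter and 0 with only the groups compared (1219, 1952, 53 and 65 probes lower in place of 600), and the UNC0638 count (7) was 4 with no filter (1774 in place of 4142). The MM.1S combination count (9) was 7 with quantile normalization (7382 probes lower in place of 7949) and 8 with the filter for all 8 arrays (7983 of 21746 probes lower). The causes were not tested. With 1 array left out, the counts ran in RPMI-8226 cells from 0 to 0 for GSK126, 0 to 0 for UNC0638 and 1 to 2 for the combination, and in MM.1S cells from 0 to 4, 4 to 7 and 8 to 9. In MM.1S cells, where 5 of 6 same-numbered pairs passed r of 0.1, the replicate block gave counts of 4, 8 and 9 genes. Taking the percentile over probes detected on all arrays moved the median of all probes with the combination from -0.13 to 0.01 in RPMI-8226 cells and from -0.12 to 0.10 in MM.1S cells, and the probes called lower and higher from 1199 and 1671 to 609 and 2008, and from 7949 and 5566 to 5027 and 7716, with 2 and 8 of the 10 genes lower. Dim ASS1 spots limit the fold in MM.1S cells.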

Other observations

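The single agents on the related lists gave further values in MM.1S cells. Of 7 serine and glycine enzymes 6 were lower with GSK126 and 6 with UNC0638 (medians -0.78 and -1.22), and of 20 ATF4 response genes 10 and 13 were lower (medians -0.63 and -0.77), beside 2.39% and 16.5% of all probes. Of the latter 20 genes 1 was higher with each agent, beside 5.19% and 12.8% of all probes. In RPMI-8226 cells limma called none of these genes with either single agent, with 3 of 21 ATF4 response genes at an unadjusted p under 0.05 with GSK126 and 4 with UNC0638, and 1 of 7 serine and glycine enzymes with each, beside 2472 and 2226 of all 23193 probes.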
